A study of Mus musculus with 12 samples.

Results

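The low-count genes described here are 9731 of the 78317 genes of a mouse heart count table, chosen because their reads summed over 12 libraries came to 12 to 120 and because they lie on chromosomes 1 to 19. In all, 38636 genes had at least 1 read, so the low-count genes are 25.2% of the genes with reads. They hold 0.0906% of all reads, with a share of 0.0719% to 0.105% in single libraries and a median sum of 31 reads. Each library is heart ventricle from 1 uninjured C57BL/6J mouse. In 6 libraries the sire had received a cardiac cryoinjury, a freezing lesion of the heart, at P1 (injured sire), and in the other 6 the sire was uninjured (uninjured sire). Collection was labelled 3 wpp, although the animals were also called adult. By the labels, 3 offspring of injured sires were male and 3 female, and 4 offspring of uninjured sires were male and 2 female, but no library is tied to a sex. They named no sire, litter or batch for any library, so a p-value here reflects only variation among these animals, and effects of litter or batch cannot be told apart from the groups. Injured-sire replicate 16 does not enter the comparisons because the submitters treated it as an outlier, which leaves 5 libraries against 6, and its values are given separately.

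In bulk RNA sequencing a gene is called detected when at least 1 read maps to it. Genes that a heart cell transcribes strongly are found in every library, while genes near the limit of sampling are found in some and missed in others, so the number of genes detected depends mostly on the rarest transcripts. These include transcripts of rare cell types, noncoding loci, pseudogenes and stray transcription inside or against other genes. The number also depends on how many different RNA molecules entered the library, because amplified copies of 1 molecule give further reads and no further gene. The table carries no molecular identifiers, so reads from 1 molecule and reads from several cannot be told apart, and likewise fewer cells of a type cannot be told apart from less RNA per cell.

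Fewer genes were detected in hearts from offspring of injured sires, and the low-count genes held more of that deficit than any other class of genes by summed reads. Over the whole table, 22972 ± 803 genes (SD, n = 5) had at least 1 read in injured-sire libraries and 25093 ± 1065 (SD, n = 6) in uninjured-sire libraries, a difference of 2121 (exact two-sided permutation test over libraries, p = 0.00866, adjusted over 5 library measures 0.0216). When each library was reduced to 30537315 reads by calculation, the difference was 1940 with the same p. Total reads ran from 30537315 to 42090257 and did not separate the groups (exact permutation p = 0.887). The mitochondrial share of reads (p = 0.199) and the share in the 100 most abundant genes (p = 0.134) also missed the threshold in the same exact test.

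The low-count genes accounted for 1211 of these 2121 genes, or 57.1%. Genes with 1 to 11 reads in all, which are 30.0% of the genes with reads, held 808 (38.1%). The 17038 genes above 120 reads held 81.8 (3.86%), and the 263 genes of 12 to 120 reads on other chromosomes held 20.0 (0.945%). Among the low-count genes, those with sums of 12 to 30 contributed 525 genes, those of 31 to 60 contributed 406 and those of 61 to 120 contributed 280. The percentage detected differed most in the middle class, with 56.0% ± 6.17 in injured-sire libraries and 71.2% ± 6.77 in uninjured-sire libraries. These shares are arithmetic on the same counts and carry no test, because the sum that chose the genes limits how many libraries can detect them.

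**Figure D1:**
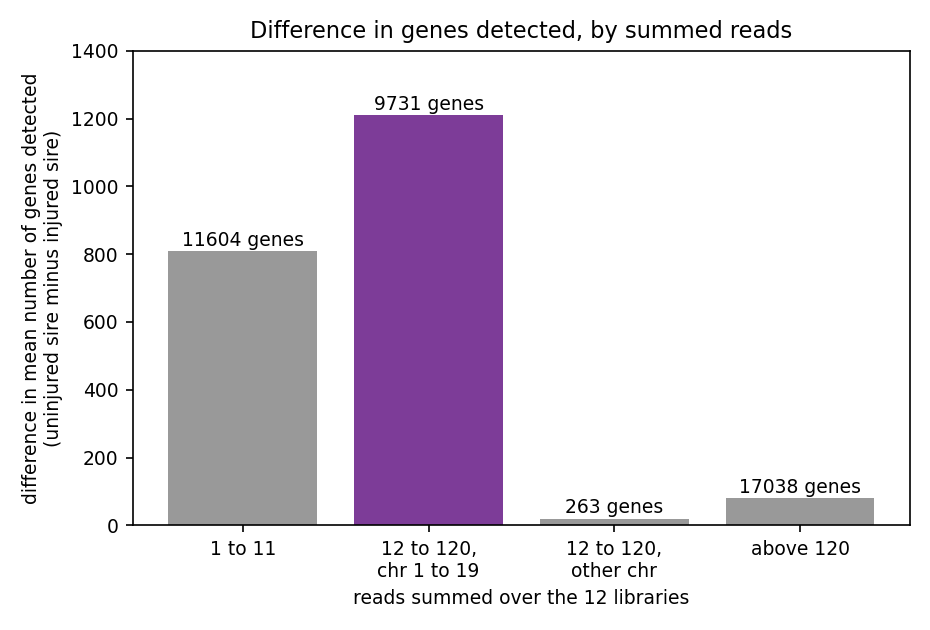
Difference in the mean number of genes detected (uninjured sire minus injured sire) for genes grouped by reads summed over 12 libraries. The class of 12 to 120 reads on chromosomes 1 to 19 has the tallest bar, at 1211 genes, and the class above 120 reads, with 17038 genes, stands at 81.8.

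In single libraries, 4154, 4628, 5476, 4951 and 4562 low-count genes had a read in injured-sire replicates 12, 13, 14, 15 and 17. Uninjured-sire replicates 18 to 23 gave 5580, 5926, 5203, 6867, 6327 and 5888. The means were 4754 ± 493 (SD, n = 5) and 5965 ± 580 (SD, n = 6), or 48.9% and 61.3% of the low-count genes. The groups overlapped in 1 place, since injured-sire replicate 14 detected more of these genes than uninjured-sire replicate 20. The left-out injured-sire replicate 16 detected 5655, within the range of the uninjured-sire libraries. Library totals alone would have given 8614 ± 157 and 8622 ± 218 low-count genes if each gene's reads were spread in proportion to the totals, so the libraries reached 55.2% ± 5.85 and 69.2% ± 6.72 of that number.

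On average the 5 compared injured-sire libraries held fewer low-count genes but not fewer reads from them. The low-count genes received 998 ± 53.6 CPM (counts scaled to a library of 1000000 counts; SD, n = 5) in injured-sire libraries and 863 ± 91.7 (SD, n = 6) in uninjured-sire libraries. The left-out replicate 16 had 719 CPM, below the lowest uninjured-sire library at 724. Each detected low-count gene carried 8.96, 7.45, 6.45, 8.56 and 6.95 reads in injured-sire replicates 12, 13, 14, 15 and 17. The uninjured-sire libraries had 4.23 at the lowest, 5.26 at the median and 6.57 at the highest, and replicate 16 had 5.10. Reads were thus concentrated in fewer genes in the injured-sire libraries, with 7.67 ± 1.06 against 5.34 ± 0.935 reads per detected gene, and the groups overlapped only where replicate 14 lay below replicate 20.

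**Figure D2:**
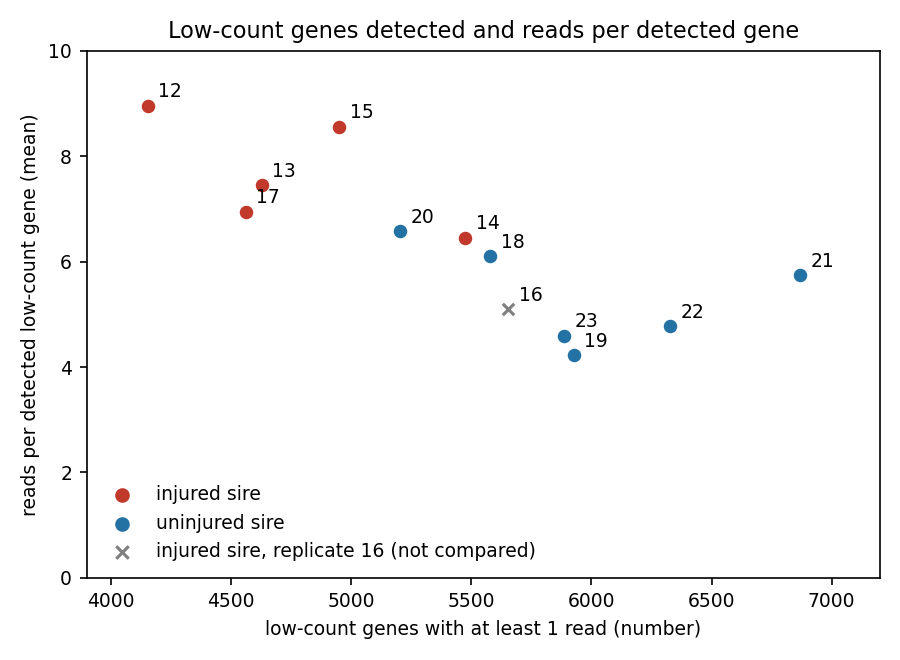
Low-count genes with at least 1 read (horizontal axis, number) and mean reads per detected low-count gene (vertical axis), 1 point per library labelled with its replicate number. Injured-sire replicates 12, 13, 15 and 17 lie at the upper left, with fewer genes and more reads in each, and injured-sire replicate 14 lies among the uninjured-sire points.

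The deficit sat in genes seen once or a few times. Genes with exactly 1 read made up 9.37% ± 1.60 (SD, n = 5) of the detected low-count genes in injured-sire libraries and 16.5% ± 4.48 (SD, n = 6) in uninjured-sire libraries. In injured-sire replicate 12, 328 low-count genes had 1 read, 321 had 5 and 308 had 7, so single reads were about as common as several. In uninjured-sire replicate 19, 1290 had 1 read, 501 had 5 and 299 had 7. The same measure over all genes, added after the data had been seen, gave 3.91% ± 0.595 and 7.59% ± 2.03 of detected genes with exactly 1 read (exact permutation p = 0.00866, adjusted over 7 library measures 0.0202).

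Raising the minimum number of reads narrowed the difference and then turned it around. With at least 2 reads, 4305 ± 408 low-count genes (SD, n = 5) counted as detected in injured-sire libraries and 4974 ± 455 (SD, n = 6) in uninjured-sire libraries. With at least 3 reads the numbers were 3883 ± 314 and 4106 ± 455. At 4 reads the injured-sire libraries had more, 3458 ± 267 against 3349 ± 464, a difference smaller than either SD. At 10 reads they had 1378 ± 250 against 869 ± 308. The whole table turned at the same place, with 20751 ± 431 genes in injured-sire and 20621 ± 645 in uninjured-sire libraries at 4 reads (exact permutation p = 0.706) and 17644 ± 359 and 17138 ± 511 at 10 reads (p = 0.0996 in the same exact test). Minimums of 3, 4 and 10 reads were chosen after seeing the data.

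**Figure D3:**
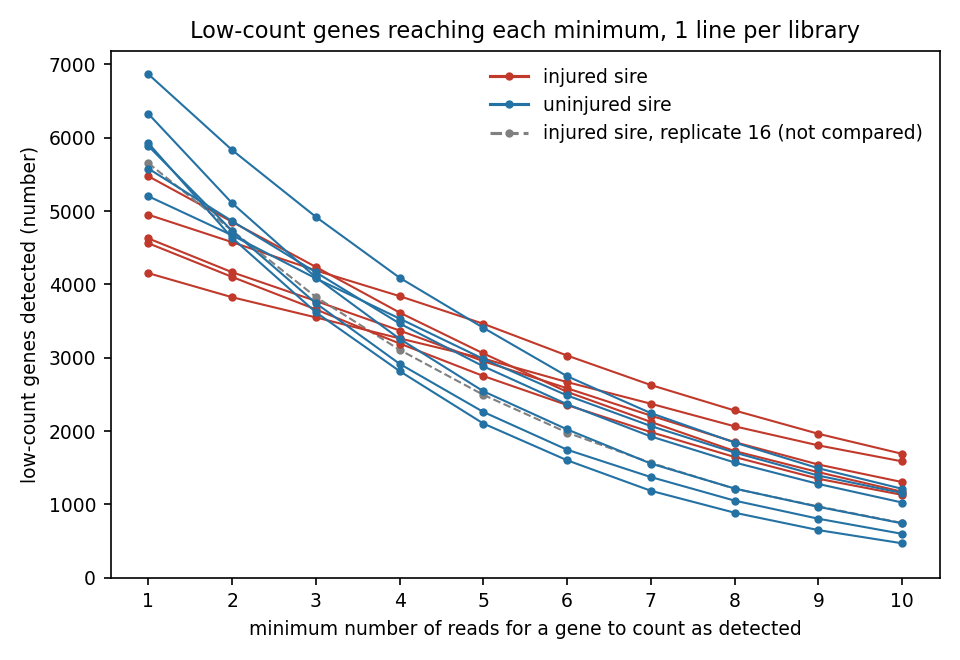
Number of low-count genes (vertical axis) that reach each minimum number of reads (horizontal axis), 1 line per library. Uninjured-sire lines start higher and fall faster, and by 10 reads the injured-sire replicates 12, 13 and 15, with 1588, 1306 and 1691 genes, lie above the uninjured-sire libraries, the highest of which has 1214.

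Drawing every library down by calculation moved the difference in the same way. At 50% of the lowest total the low-count genes detected differed by 642, at 20% by 101 (3040 ± 201 against 3141 ± 248, less than either SD), and at 10%, or 3053731 reads, the injured-sire libraries had 2047 ± 114 against 1973 ± 169, again a difference less than either SD. At 1% they had 291 ± 15.4 against 255 ± 26.3. The order of the groups at 10% and below was that of the low-count genes' CPM. The deficit was therefore larger than the SD of either group at full depth and at 50% of the lowest total, and within the spread at 20%.

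Reads of single low-count genes were also spread less evenly over the libraries on the injured-sire side. For 2117 low-count genes (21.8%), at least 50% of the reads came from 1 of the 12 libraries. Injured-sire replicates 12, 13, 14, 15 and 17 were that library for 435, 290, 205, 367 and 233 genes. In the uninjured-sire group the lowest number was 20, the median 78 and the highest 157, and replicate 16 had 66. The groups did not overlap. Of the 2117 genes, 184 had all their reads in 1 library, with 62, 38, 9, 37 and 23 of them in the same 5 injured-sire libraries and at most 8 in any uninjured-sire library.

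**Figure D4:**
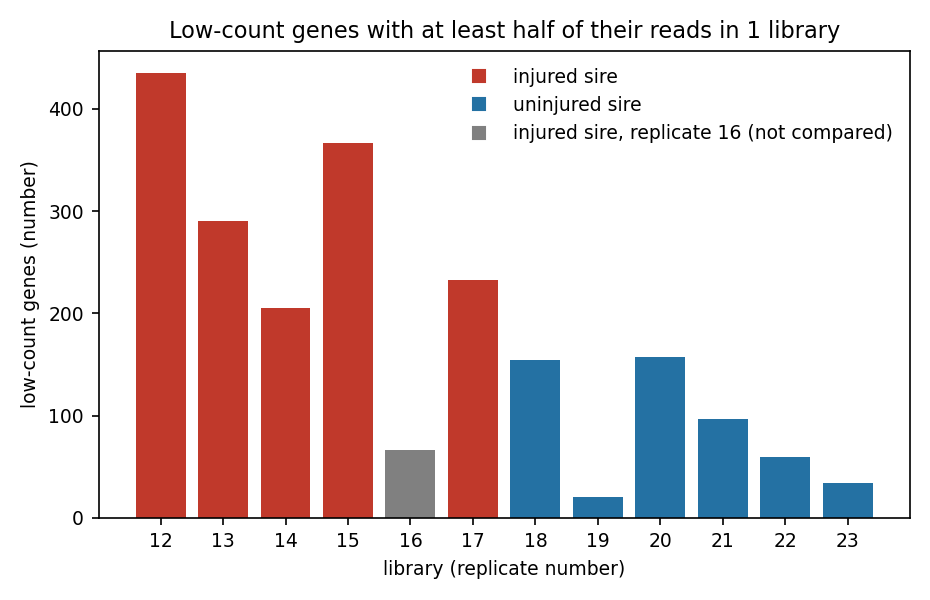
Number of low-count genes (vertical axis) with at least 50% of their 12-library reads in the library named by its replicate number (horizontal axis). The 5 compared injured-sire libraries have 205 to 435 such genes and the uninjured-sire libraries 20 to 157.

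Uneven spread was not confined to the low-count genes. Among 3175 genes with sums of 241 to 1200 reads, the median squared deviation from the library's expected count, divided by that count, was 3.63 ± 0.596 (SD, n = 5) in injured-sire and 2.47 ± 0.578 (SD, n = 6) in uninjured-sire libraries, where reads drawn independently would give less than 1. This measure was added after the data had been seen (exact permutation p = 0.0173, adjusted over 7 library measures 0.0303). The part of amplified copies or of the amount of RNA put into each library in these patterns was not tested.

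Detection was lower in injured-sire libraries on each of the 19 chromosomes. The smallest gap was 9.60 percentage points on chromosome 18, the median 12.5, and the largest 15.3 on chromosome 9, where 47.8% ± 6.57 (SD, n = 5) and 63.0% ± 6.69 (SD, n = 6) of 556 low-count genes had a read. No chromosome carried more than 7.90% of the deficit of 1211 genes, and chromosome 2, with 7.46% of the low-count genes, carried that share. The deficit was therefore spread along the genome in rough proportion to the genes on each chromosome.

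Gene length, counted as exon bases, also made little difference. Low-count genes were short, with a median of 1590 bases against 4162 for genes above 120 reads on the same chromosomes. Genes under 500 bases were detected at 45.7% ± 3.03 (SD, n = 5) and 56.5% ± 4.72 (SD, n = 6), a gap of 10.8 points. The gap widened to 14.4 points at 2000 to under 4000 bases, 49.1% ± 6.08 against 63.5% ± 6.84, and narrowed to 9.71 points at 4000 bases and over. In each of the 5 length classes the injured-sire mean was lower.

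Gene names and annotation types separated the low-count genes more clearly. A total of 3386 (34.8%) had no symbol in the name table and 3112 (32.0%) had a predicted-gene name beginning with Gm, while genes with an ordinary symbol were 2051 (21.1%), against 80.7% of genes above 120 reads. Genes with no symbol were detected at 44.5% ± 5.08 (SD, n = 5) and 59.8% ± 6.35 (SD, n = 6), a gap of 15.4 points with no overlap between the groups. Gm genes had a gap of 13.3 points, with 63.3% ± 6.00 in uninjured-sire libraries, also without overlap. The margins were narrow, with injured-sire highs of 51.8% and 56.2% below uninjured-sire lows of 52.7% and 56.4%. The left-out replicate 16 detected 57.4% of the genes with no symbol and 60.7% of the Gm genes, within the uninjured-sire ranges. Genes with an ordinary symbol had 53.6% ± 6.69 and 61.6% ± 7.37, a gap of 8.08 points, about as large as the SD of either group. Together the unnamed and Gm genes held 42.9% and 34.1% of the deficit, and the ordinary genes 13.7%.

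By annotation type the gap was largest for TEC loci, a GENCODE label for transcribed loci that still await experimental support as genes. The 802 TEC loci were detected at 46.3% ± 6.92 (SD, n = 5) and 67.1% ± 8.92 (SD, n = 6), a gap of 20.8 points. The 1868 long noncoding RNA genes had 48.0% ± 5.65 and 63.0% ± 7.11, a gap of 15 points, and the 2228 protein-coding genes 53.0% ± 6.82 and 61.3% ± 7.16, a gap of 8.28 points. The 1179 pseudogenes, copies of genes that mostly no longer encode protein, had 58.6% ± 1.15 and 61.4% ± 3.08, a gap of 2.71 points. Reads that also match the parent gene were not counted, so values of single pseudogenes are uncertain. Pseudogenes were detected at nearly the same rate in the 5 compared injured-sire libraries, 56.7% to 59.5%, while TEC loci ranged from 40.1% to 57.7%. Replicate 16 detected 61.7% of the pseudogenes and 63.7% of the TEC loci.

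A gene's place relative to expressed genes ran along with this order. Genes inside or overlapping a gene of at least 1200 summed reads on the same strand only numbered 1372. They were detected at 46.3% ± 6.64 (SD, n = 5) and 65.3% ± 8.77 (SD, n = 6), a gap of 19.1 points. Genes only opposite such a gene numbered 2410 and had a gap of 15.3 points. The 57 genes that overlapped such genes on both strands had a gap of 18.1 points and count as same strand in the types below. The 5892 genes that overlapped none had 49.3% ± 4.91 and 58.9% ± 5.32, a gap of 9.68 points. Within the TEC loci, the 543 on the same strand as an expressed gene had a gap of 24.3 points and the 184 that overlapped none had 12.3. For the protein-coding genes the gap was 20.9 points for the 47 on the same strand and 7.72 for the 1955 that overlapped none, and for the pseudogenes 13.2 points for 191 and 0.49 for 868. For the long noncoding RNA genes it was 14.6 points for the 155 on the same strand, 16.8 for the 774 on the opposite strand and 13.5 for the 939 that overlapped none. In each of these 4 types the gap was larger on the same strand than away from expressed genes, and it differed least for the long noncoding RNA genes; these differences were not tested. Reads on the same strand within an expressed gene can also come from that gene's unspliced RNA, and how much they did was not tested.

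**Figure D5:**
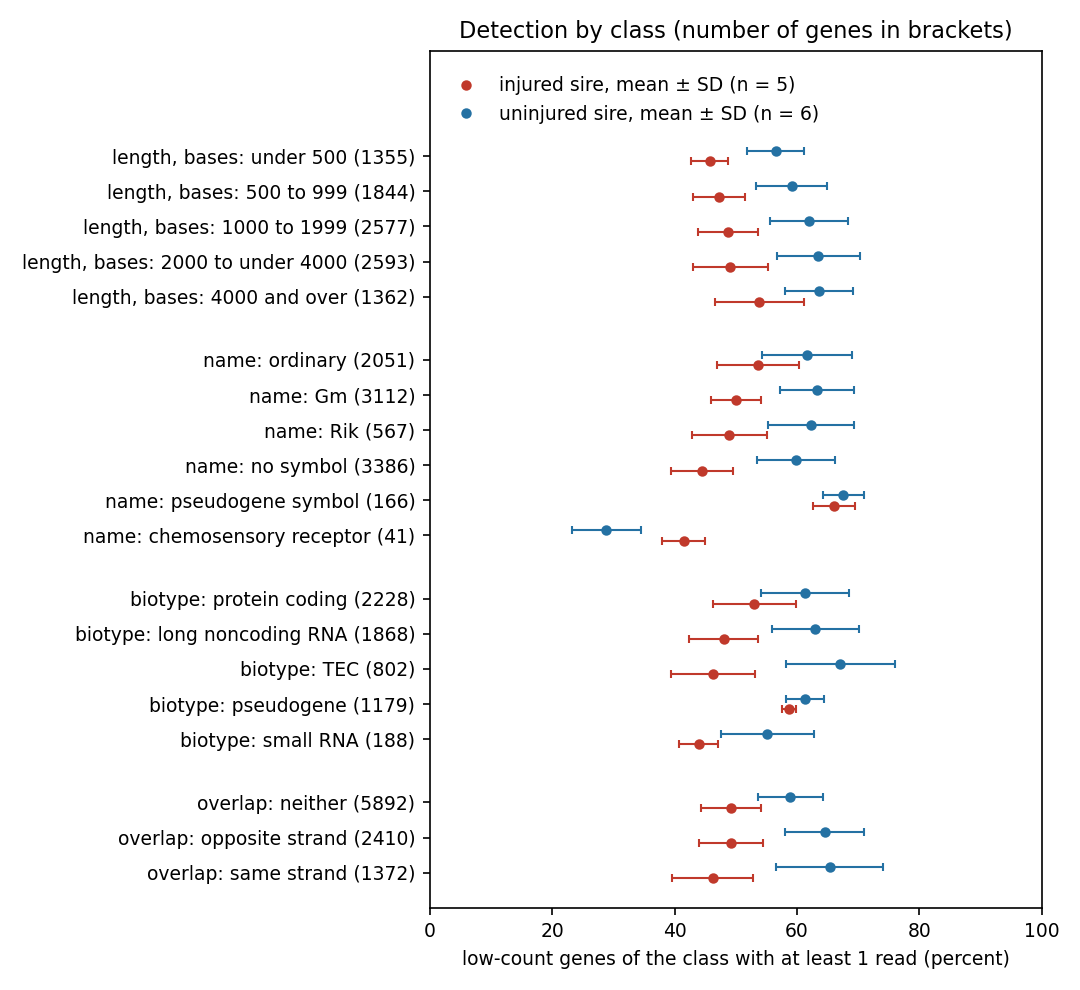
Percentage of low-count genes with at least 1 read (horizontal axis, mean ± SD over libraries) by exon length, name class, annotation type and overlap with an expressed gene (vertical axis). Uninjured-sire points lie to the right in each class drawn except the 41 chemosensory receptor genes, and the 2 pseudogene classes show the smallest gaps.

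The 41 low-count genes named as olfactory, vomeronasal or taste receptors, the sensors of smell and taste, were the class with the opposite order. They were detected at 41.5% ± 3.45 (SD, n = 5) in injured-sire libraries, which gave 43.9%, 43.9%, 43.9%, 39.0% and 36.6% in replicates 12, 13, 14, 15 and 17. Uninjured-sire libraries ranged from 19.5% to 36.6%, so the groups touched at 36.6%. The 76 immunoglobulin and T cell receptor segments, the gene pieces that B and T cells join, followed single libraries instead. Uninjured-sire replicates 18 and 23 detected 67.1% and 64.5% of them and injured-sire replicate 14 came next, while the other 8 compared libraries lay between 18.4% and 40.8%.

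The low-count genes include 69 microRNA genes, and of 66 looked up in the RefSeq table of mature sequences, 61 matched. MicroRNAs are cut from a hairpin precursor and pair with target transcripts through their seed, bases 2 to 8. The labels name no small RNA preparation, so reads at these loci need not come from mature microRNAs. The 4 low-count microRNA genes with the most reads, chosen after their values were seen, lie on the same strand inside an expressed gene, and their 5p arms are shown (RefSeq, GRCm38.p6, 5′ to 3′, seed in capitals) to identify the loci.
mmu-miR-7a-5p: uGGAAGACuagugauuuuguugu
mmu-miR-1943-5p: aAGGGAGGaucugggcaccugga
mmu-miR-99a-5p: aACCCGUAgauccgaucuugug
mmu-miR-186-5p: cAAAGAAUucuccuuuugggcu

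These arms lie at chr13:58392841-58392863 on the minus strand, chr15:79375271-79375293 on the minus strand, chr16:77598940-77598961 on the plus strand and chr3:157544285-157544306 on the plus strand of GRCm38.p6. No seed was shared among the 8 mature arms of the 4 genes. Mir7-1 lies within Hnrnpk, an RNA-binding protein gene, and had 13, 12, 13, 0 and 20 reads in injured-sire replicates 12, 13, 14, 15 and 17 and 4 to 23 (median 7.5) in uninjured-sire libraries. Mir1943 lies within Tmem184b and had 15, 7, 2, 6 and 4 reads against 4 to 20 (median 7). The groups overlapped for both genes. Mir99a, within its host transcript Mir99ahg, had 9, 2, 2, 12 and 11 reads against 3 to 16 (median 7). Mir186, within Zranb2, had 0, 1, 5, 0 and 14 reads against 2 to 19 (median 8). Zeros occurred for Mir186 and Mir7-1 in injured-sire libraries and for none of the 4 in uninjured-sire libraries. Over the 69 microRNA genes, 30.4 ± 3.05 (SD, n = 5) had a read in injured-sire libraries and 35.0 ± 6.99 (SD, n = 6) in uninjured-sire libraries, a difference within the spread.

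The test of each gene's level gave few calls. In a fit over the 27032 genes with a sum of at least 12 reads, 59 were called (quasi-likelihood test of edgeR, threshold 0.05 after Benjamini-Hochberg adjustment), or 0.218% of those tested, 24 higher and 35 lower in injured-sire hearts. Of the 9731 low-count genes, 1 was called, and 1160 (11.9%) had an unadjusted p below 0.05 against 10.5% of all genes tested. The median SE of a log2 fold change was 1.5 for low-count genes and 0.125 for genes above 120 reads. This SE is approximate, the absolute log2 fold change divided by the square root of the edgeR test's F statistic. By that measure, changes below several-fold were mostly not detectable at this depth. The median log2 fold change of the low-count genes was 0.19, or 0.19 with the 931 genes at 0 in a group set to their bounds, against -0.0049 over all genes tested. The fitted value was above 0 for 55.9% of low-count genes and 49.1% of all genes tested, although 6261 low-count genes were detected in a larger share of uninjured-sire libraries and 3097 in a larger share of injured-sire libraries.

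The called gene, ENSMUSG00000130840, is a 558-base locus without a symbol on chromosome 14 (54490988 to 54491545, plus strand, GRCm39) opposite Dad1, a subunit gene of the enzyme that attaches sugars to new proteins. It had 15, 24, 11, 23 and 13 reads in injured-sire replicates 12, 13, 14, 15 and 17, and 15 in replicate 16. Uninjured-sire replicates 18 to 23 had 1, 0, 2, 1, 0 and 1. The groups did not overlap, and the log2 fold change was 4.18 ± 0.995 (SE, edgeR adjusted p = 0.0499). Leaving out any 1 of the 11 libraries kept the log2 fold change between 3.95 and 4.53; the adjusted p was then 0.0526 to 0.209, with 0.209 without injured-sire replicate 13. In detection this locus went against the pattern of the class, with reads in each of the 6 injured-sire libraries. In level its direction was that of the median log2 fold change of the low-count genes, 0.19.

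Complete separation of the groups was also rare. In 11 low-count genes (0.113%) the lowest level in injured-sire libraries lay above the highest in uninjured-sire libraries, against a background of 0.429% of all genes tested. The reverse held for 33 (0.339%), against 0.425%. Neither share lay above its background. Among the 33 was Tnf, the gene of an inflammatory cytokine, chosen after its values were seen, with 1, 0, 0, 0 and 0 reads in injured-sire libraries, 11 in replicate 16 and 3 to 32 in uninjured-sire libraries (edgeR adjusted p = 0.118). Treml4, a myeloid receptor gene also chosen after its values were seen, was among the 11, with 13, 12, 13, 8 and 15 reads against 0 to 6 (edgeR adjusted p = 0.609). The left-out replicate 16 had 9 reads of Treml4 and so stood with its own group, while for Tnf it stood with the uninjured-sire libraries.

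Protein-coding genes with an ordinary symbol and the largest gap in detection show how thin the counts are. They were picked for that gap, so their values are a description. Of the protein-coding genes with other names, Gm20696 and A930017K11Rik, chosen after their values were seen, were also found in 6 of 6 uninjured-sire and 0 of 5 injured-sire libraries. Gm20696 had 13, 8, 4, 26, 1 and 7 reads in uninjured-sire replicates 18 to 23 (edgeR adjusted p = 0.0873) and A930017K11Rik had 10, 4, 10, 9, 1 and 7 (edgeR adjusted p = 0.172), and both had 1 read in replicate 16. Il31ra, a receptor subunit for the itch-related cytokine interleukin 31 (chromosome 13, 112656432 to 112730894), had no read in any of the 6 injured-sire libraries. Uninjured-sire replicates 18 to 23 had 11, 20, 14, 14, 1 and 1 reads. With 3 reads taken as the limit for a count of 0 over the 5 compared libraries (0.0165 CPM), the pooled uninjured-sire level of Il31ra lay 16.8-fold above that limit. The limit covers counting error only, not variation between libraries, and the gene was picked for its gap. The edgeR adjusted p of Il31ra was 0.0799. Klk7, a serine protease of skin, had no read in the 5 compared libraries, 2 in replicate 16 and 2, 2, 9, 9, 4 and 4 in uninjured-sire libraries. Its pooled uninjured-sire level lay 8.25-fold above the same limit. Il31ra and Klk7 were thus found in 6 of 6 uninjured-sire hearts, by as little as 1 or 2 reads in some.

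Other genes with an ordinary symbol were likewise absent from the 5 compared injured-sire libraries. D6Ertd527e and L1td1, an RNA-binding protein gene of early embryos that derives from a retrotransposon, were also found in 6 of 6 uninjured-sire libraries and 0 of 5, with highest counts of 12 and 7 reads. For each of them 3 uninjured-sire libraries had exactly 1 read. Tmem156, Sirpb1c, Defb25 and Tfap2e, the last a transcription factor gene of the AP-2 family, were found in 5 of 6 and 0 of 5. Defb25, which encodes a defensin, an antimicrobial peptide, had 21 of its 29 reads in uninjured-sire replicate 20. For Tmem156, Sirpb1c, Tfap2e, Klk7 and D6Ertd527e replicate 16 had 1 to 5 reads although the 5 other injured-sire libraries had none.

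Other genes were detected in a larger share of injured-sire libraries, and they too were picked for that gap. Muc5ac, a gel-forming mucin of airway and stomach, had 11, 3, 14, 18 and 6 reads in injured-sire replicates 12, 13, 14, 15 and 17. It had 7 in uninjured-sire replicate 18 and none in the other 5 or in replicate 16. Lin28a, a regulator of let-7 microRNAs in embryonic cells, had 10, 13, 5, 0 and 16 reads and none in any uninjured-sire library. Its pooled injured-sire level lay 17.8-fold above the limit of 0.0136 CPM there, which covers counting error only (edgeR adjusted p = 0.106). Fbxo41, an F-box protein gene of neurons, had 0, 10, 16, 9 and 2 reads and Nrsn2, a neuronal membrane protein gene, 0, 3, 3, 2 and 8, both with none in uninjured-sire libraries. These 3 genes were found in 4 of 5 injured-sire and 0 of 6 uninjured-sire libraries.

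The remaining genes on this side overlapped between groups. H2-M9 and H2-Q2, nonclassical major histocompatibility genes whose family has close copies that make their counts uncertain, were found in 5 of 5 and 2 of 6 libraries. Sntn, a gene of motile cilia, had 6, 24, 10, 24 and 1 reads against 26 and 10 in uninjured-sire replicates 18 and 21 and none in the other 4. D9Wsu149, annotated as a processed pseudogene, had 1 to 7 reads in the 5 injured-sire libraries and 2 in uninjured-sire replicate 19. The lowest edgeR adjusted p of these 4 genes was 0.366, for H2-Q2.

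The heart markers sat far above the low-count range, as a check of the tissue. None of 10 heart marker genes, including Myh6, Tnnt2 and Ryr2, was a low-count gene, and the lowest count of any of them in any library was 53951. None of the 16 fat genes was a low-count gene either. The other lists held markers of tissues near the heart or foreign to it, and no low-count gene in any list was called, against the background of 0.218%.

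Airway and lung markers among the low-count genes followed single libraries of both groups. Of 44 airway and lung genes, 8 were low-count genes, and 7, 6, 5, 5 and 2 of them had a read in injured-sire replicates 12, 13, 14, 15 and 17. Uninjured-sire libraries had 1 to 6 and replicate 16 had 1, so the ranges overlapped, with means of 5 ± 1.87 (SD, n = 5) and 2.67 ± 2.25 (SD, n = 6). All 8 had a fitted value above 0, with a median log2 fold change of 2.24 against 0.19 for all low-count genes. Cldn18 was 1 of the 8 only through 16 reads in injured-sire replicate 12, so this direction depends in part on how the genes were chosen. Nkx2-1, the transcription factor gene that marks lung and thyroid, had 2, 0, 33, 35 and 0 reads in injured-sire libraries and 15 and 31 in uninjured-sire replicates 18 and 21, with none in the other 4. Dnah11, a dynein gene of motile cilia, had 4, 13, 16, 36 and 0 reads, and 20, 3 and 19 in uninjured-sire replicates 18, 20 and 21.

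The whole airway list moved with the libraries in the same way. Summed over its 44 genes it reached 479, 633, 882, 1174 and 348 CPM in injured-sire replicates 12, 13, 14, 15 and 17. In the uninjured-sire group it reached 791 and 711 in replicates 18 and 21 and 281 to 327 in the other 4, so the groups overlapped. Only 1 of the 44 genes had no read in the 5 injured-sire libraries and 1 none in the uninjured-sire libraries. The part of airway tissue in the low-count genes of these libraries was not tested.

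Blood cell markers also overlapped between the groups. Of 56 lymphoid and myeloid genes, 16 were low-count genes, and 6.00 ± 1.87 (SD, n = 5) had a read in injured-sire libraries against 9.33 ± 2.25 (SD, n = 6), or 37.5% and 58.3% of the 16 beside 48.9% and 61.3% of all low-count genes. The ranges, 4 to 8 and 7 to 12 genes, overlapped. Their reads totalled 35 to 146 and 23 to 106, which overlapped too, and the highest total was that of replicate 17. The median log2 fold change was -0.097, with 8 genes above 0 and 8 below. Dntt, which adds bases to antigen receptor genes in developing T and B cells, had 78 reads in injured-sire replicate 17, 13 in uninjured-sire replicate 18 and none elsewhere. Rag2, which cuts those genes and was chosen after its values were seen, had 27 reads in the same replicate 17 and at most 10 in any other library. Prss16, a protease gene of the thymus outside the list, had 88 of its 102 reads there. Dntt, Rag2 and Prss16 each had more reads in replicate 17 than in the 11 other libraries together. Other genes of the list did not share this. Of the 16 low-count genes, 8 had a read in replicate 17, and Cd7, Vpreb1, Eomes and Tbx21 were among those with none. Summed over its 56 genes, the whole list had 89.0 CPM there, within the range of 57.1 to 117 for the 5 injured-sire libraries and 52.0 to 113 for the uninjured-sire libraries.

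The reads of liver and gut genes together were highest in other libraries, while single genes varied. Of 36 genes, 16 were low-count genes, with 183, 124, 52, 40 and 75 reads in injured-sire replicates 12, 13, 14, 15 and 17 and 22 to 168 (median 28) in uninjured-sire libraries. The 3 fibrinogen chain genes, which encode the clotting protein made by liver, were among them. Fgb had 50 and 9 reads in injured-sire replicates 12 and 13 and 7 and 2 in uninjured-sire replicates 20 and 22. Fgg had 25, 19, 1, 0 and 8 in injured-sire replicates 12, 13, 14, 15 and 17, and 1 and 14 in uninjured-sire replicates 20 and 22. Vil1, the low-count gene of the list with the most reads, was spread over both groups. It had 14, 11, 18, 17 and 6 reads in injured-sire replicates 12, 13, 14, 15 and 17 against 1 to 16 in uninjured-sire libraries. Fabp1, the fatty acid-binding protein gene of liver, had 31 of its 59 reads in uninjured-sire replicate 22. Outside the list, Uox, the urate oxidase gene of liver, had 38 of its 60 in injured-sire replicate 13 and none in replicate 12. The summed reads of the 16 genes were highest in replicates 12, 13 and 22, which belong to both groups. Single genes differed, with more reads of Fgb in replicate 20 than in replicate 22 and the most reads of Vil1 in replicate 14.

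Germline, muscle, nerve and keratin genes overlapped between the groups. Of 46 germline and testis genes, 13 were low-count genes, of which 8.20 ± 1.10 (SD, n = 5) and 9.67 ± 0.816 (SD, n = 6) had a read. Nanos3, needed for germ cell survival, had 22, 14, 10, 0 and 0 reads against 2 to 22, and Sycp3, of the meiotic chromosome axis, 12, 16, 6, 34 and 8 against 0 to 19. Of 25 skeletal muscle genes, 7 were low-count genes, with 3.60 ± 0.548 and 4.33 ± 1.21 detected, and Myh8, the perinatal myosin gene, had 14, 9, 20, 1 and 5 reads against 4 to 18. Of 35 neuronal genes, 14 were low-count genes, with 9.80 ± 1.30 and 10.2 ± 1.33 detected. Gria2, a glutamate receptor subunit gene, had 0, 18, 22, 9 and 8 reads against 1 to 19, and Nefh, of the neuronal cytoskeleton, 20, 2, 14, 11 and 8 against 1 to 27. Of 33 epithelial genes, 9 were low-count genes, with 5.60 ± 1.52 and 5 ± 2.1 detected, and Cldn4, a tight junction gene, had 47 of its 107 reads in injured-sire replicate 15. In each of these 4 lists the ranges of the groups overlapped.

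Among developmental transcription factors, ion channels and neuronal genes, most low-count members had a fitted value above 0, although none was called and the ranges of the groups overlapped. Other lists shared this direction, with 12 of 16 low-count liver and gut genes, 9 of 13 germline genes and 8 of 9 epithelial genes above 0. All 8 airway genes were above 0 too, against 4 of 7 skeletal muscle genes and 8 of 16 lymphoid and myeloid genes. Of 103 developmental transcription factor genes, 54 were low-count genes. They had 183, 195, 322, 239 and 246 reads in injured-sire replicates 12, 13, 14, 15 and 17 and 78 to 235 (median 95) in uninjured-sire libraries, while 21.6 ± 3.91 (SD, n = 5) and 23.5 ± 6.38 (SD, n = 6) were detected. The fitted value was above 0 for 42 of the 54, and the median log2 fold change was 1.08 against 0.19 for all low-count genes. Some genes reached 12 reads only through 1 injured-sire library, such as Six6 (21 reads in replicate 17), Hoxd12 (17 in replicate 13) and the channel gene Asic4 (17 in replicate 12). Gbx1 had its 15 reads in uninjured-sire libraries only. Directions and medians in all these lists therefore depend in part on how the genes were chosen, and they are a description. All 103 genes together had 16.6 to 27.9 CPM in the 5 injured-sire libraries and 12.2 to 26.7 in the uninjured-sire libraries. Tbx4, a limb and lung transcription factor gene, had 10, 12, 27, 18 and 13 reads against 0 to 13 (edgeR adjusted p = 0.63), and Sox21 had 58 of its 107 reads in injured-sire replicate 15. Of 123 ion channel and neurotransmitter receptor genes, 53 were low-count genes, with 323, 330, 288, 306 and 150 reads against 116 to 238 (median 162.0) and 28.2 ± 5.76 against 32.2 ± 2.48 detected. Cacna1i, a T-type calcium channel gene, had 21, 5, 1, 6 and 30 reads against 0 to 13, and the fitted value was above 0 for 42 of the 53. All 123 genes together had 196 to 223 CPM against 193 to 211. The 14 low-count neuronal genes had 69 to 130 reads against 35 to 114, and the fitted value was above 0 for 13 of them. The whole neuronal list of 35 genes had 65.5 to 76.1 CPM against 52.7 to 66.8.

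Whether the genes that came mostly from 1 library differed in kind between libraries was not tested. Only 1 such gene is named per library, the ordinary-symbol gene with the most reads there. In injured-sire replicate 14 it was Prrt3, with 25 of its 27 reads, and in the left-out replicate 16 Stfa1, a cysteine protease inhibitor gene of neutrophils, with 15 of 28. On the uninjured-sire side Apol7c, expressed in dendritic cells, had 54 of its 94 reads in replicate 18 and 28 in replicate 23, the libraries with the most immunoglobulin and T cell receptor segments. Ccin, a sperm head protein gene, had 16 of 30 in replicate 21, and Tnfsf8, a ligand of activated T cells, 17 of 27 in replicate 23. Replicate 19, where single reads were most frequent, was the 1 library with no ordinary-symbol gene of this kind.

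At the edges of the chosen range the values ran on without a step. The 500 genes with 11 reads, just outside, were detected in 20.3% of injured-sire and 28.7% of uninjured-sire libraries on average, and the 448 with 12 reads, just inside, in 23.2% and 30.4%. At the upper edge the 23 genes with 120 reads had 82.6% and 96.4%, and the 20 genes with 121 reads had 81.0% and 94.2%. Of the low-count genes themselves, 337 (3.46%) were detected in all 12 libraries and the median gene in 7.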

How the data were processed

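RNA from snap-frozen ventricle was sequenced in bulk, per the labels' protocols. The deposited values are raw read counts per Ensembl gene, without normalization, made, per the file headers, by featureCounts 2.1.1 with strand setting 2 and no multi-mapping reads, on GRCm39 with Ensembl 114. STAR 2.7.10a appears in the submitters' processing notes. Another 11 sample columns were not used. Symbols and gene types came from GENCODE M21 (51487 of 78317 IDs matched, 65.2% of low-count genes), coordinates from the counted file. GC content was not checked.

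Low-count genes were counted per library, with means and SDs over 5 injured-sire and 6 uninjured-sire libraries. Whole-table library measures were compared by exact two-sided permutation over 462 splits, whose smallest p is 0.00433. Detection at lower depth is the hypergeometric expectation. Levels were tested with edgeR 4.0.16 in R 4.3.3 (TMM, robust quasi-likelihood, Benjamini-Hochberg, threshold 0.05) on genes with sums of at least 12, so that each low-count gene entered the fit, after the chain was tested on simulated data. The edgeR filter filterByExpr (minimum count 10, minimum total 15) would keep 255 low-count genes (2.62%). Intervals and limits for a count of 0 (3 counts over a group) cover counting error only.

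The low-count genes and all lists were chosen with earlier results of these data known. Genes were named by rule: called low-count genes; the 8 with ordinary symbols and the largest gap in share of libraries in each direction; the 2 with the largest sums in each list; and, per library, the one with most reads among those with at least 50% of their reads there. Alternatives were all 12 libraries, each library left out, other minimums and depths, other ranges of sums, other filters and scalings, and DESeq2 1.42.0.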

Additional observations from a re-analysis of the deposited data

Results flagged for a closer look

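Of 114 groups of 4 to 10 libraries checked over 47 genes and the library measures, 33 had 1 library far from the others by Dixon's criterion, all of them in named genes and none in a library measure. Chance alone flags about 1 in 20 such groups, and the criterion is easily met when most libraries have 0 reads. Many of these genes were also chosen for being high in 1 library or found mostly in 1 group.

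In the injured-sire group, replicate 16 stood apart with 2 reads of Klk7, 5 of D6Ertd527e, 2 of Tmem156, 1 of Sirpb1c, 4 of Tfap2e and 2 of Tnfsf8, where the other 5 had none, and with 15 of Stfa1. Replicate 15 stood apart with 7 reads of D9Wsu149, 47 of Cldn4, 20 of Camp, 58 of Sox21 and 10 of Apol7c. Replicate 17 had 78 reads of Dntt and 88 of Prss16, replicate 12 had 50 of Fgb, replicate 13 had 38 of Uox and replicate 14 had 25 of Prrt3.

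In the uninjured-sire group, replicate 18 stood apart with 7 reads of Muc5ac, 28 of Myh13, 27 of Nefh, 19 of Sycp3 and 13 of Dntt. Replicate 20 had 21 reads of Defb25, 7 of Fgb, 7 of Prss16 and 23 of Mir7-1. Replicate 22 had 14 reads of Fgg, 9 of Uox and 31 of Fabp1. Replicate 23 had 11 reads of H2-M9 and 17 of Tnfsf8, replicate 19 had 2 of D9Wsu149 and replicate 21 had 2 of Prrt3.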

How the results depend on the processing

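The difference in genes detected over the whole table (2121, uninjured minus injured) fell to 352 at a minimum of 3 reads (exact permutation p = 0.385) and reversed to -129 at 4, -417 at 5 and -506 at 10 reads, and to -6.18 and -81.4 at 10% and 1% of the lowest total; each library left out gave 1782 to 2414. For the low-count genes (1211) it was 669 at 2 reads and 222 at 3, and reversed to -110 at 4, -346 at 5 and -510 at 10 reads and to -73.4 and -35.7 at 10% and 1% of the lowest total; leaving out a library gave 1031 to 1391. Their share of the difference (57.1%) was 60.6% at 2 reads, 43.9% for sums of 12 to 60 and 44.7% for sums of 24 to 240. At 5 reads that share was not computed, because the difference had changed sign. Minimums of 3, 4 and 10 reads and depths of 10% and 1% were chosen after seeing the data.

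Genes called over the whole table (59) numbered 26 with all 12 libraries, 18 with filterByExpr, 236 with no filter beyond 1 read, 124 with the DESeq2 Wald test, 95 at a threshold of 0.1 and 23 to 105 with a library left out, the lowest without injured-sire replicate 13 and the highest without uninjured-sire replicate 22. Low-count genes called (1) numbered 11 with no filter beyond 1 read, 4 at a threshold of 0.1, 0 with DESeq2 size factors, upper-quartile factors or no scaling factor, and 0 to 2 with a library left out. No low-count gene of the 9731 had an adjusted p from the DESeq2 Wald test, and 456 of them had an unadjusted p below 0.05 there. Under the 3 edgeR scalings that gave 0, that number was 1164 to 1165. ENSMUSG00000130840 missed the threshold in 14 of 17 alternatives, with adjusted p of 0.0534, 0.0516 and 0.0573 under the other scalings. Genes whose groups did not overlap (116 higher and 115 lower, of which 11 and 33 low-count) numbered 37 and 69, of which 4 and 14 low-count, with all 12 libraries; with a library left out they numbered 152 to 299 and 151 to 244, of which 15 to 45 and 49 to 74 low-count, smaller groups being easier to separate. The cause of the other changes was not tested. No paired analysis was possible because the 2 groups share no replicate number.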
